A study of Mus musculus with 8 samples.

Results

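The 9 genes described here are homeobox transcription factor genes: Pou3f1, Pou3f2, Pou3f3 and Pou3f4 of the POU3 class, Meis1, Meis2 and Meis3, and the PBX genes Pbx2 and Pbx3. They were taken by symbol from the 43629 gene IDs of the deposited tables, and each symbol matched 1 ID. The data are RNA sequencing counts from dorsal forebrain of male mouse embryos at E12.5, the stage at which the wall of the future neocortex holds dividing progenitors and its earliest neurons. The 4 mutant samples (Mut_295, Mut_317, Mut_337 and Mut_340) had the genotype Emx1-cre/+;Sufu-fl/fl, called Sufu-cKO. In them cre made from Emx1 deletes the floxed part of Sufu in dorsal telencephalic progenitors and what descends from them, while other cells of the dissected tissue keep the gene. The 4 controls, Cont_294, Cont_345, Cont_365 and also Cont_370, were Sufu-fl/fl or Sufu-fl/+, and the labels do not say which sample was which. All carry at least 1 floxed allele on a mixed background with C57BL/6J. No cre allele is named for the controls, so the presence of cre and the loss of Sufu cannot be told apart. The comparison asks how these factors stand in dorsal forebrain tissue where part of the cells lost Sufu, which encodes SUFU, an inhibitor of SHH signalling.

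POU3 proteins bind an octamer-like DNA element through a split POU domain, often beside a SOX protein, and are known in the forebrain for their part in progenitor division, neuron production and the specification of upper-layer neurons. Pou3f2 and Pou3f3 encode BRN2 and BRN1, which overlap in function in cortical progenitors, Pou3f1 encodes OCT6, and Pou3f4 encodes BRN4, a gene of ventral telencephalon and inner ear. MEIS and PBX proteins belong to the TALE class, named for a three-residue extension in the loop of the homeodomain. MEIS proteins bind DNA together with PBX proteins, and PBX proteins also pair with HOX proteins. In the embryonic telencephalon Meis1, Meis2 and Pbx3 are known as genes of the ganglionic eminences and of striatal neurons, and Meis2 is also made in cortex.

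The stretches just before the start sites of Pou3f2, Pou3f3 and Pou3f4 are shown because the ratios among these 3 paralogs are compared further on. They come from the RefSeq promoter table on GRCm38.p6, which held a window for 7 of the 9 genes, and each is written 5′ to 3′ on the strand of its gene. The letters CCAAT, or ATTGG where the match is on the other strand, are in capitals. Bases inside the deposited span of Pou3f4 are left out.
Pou3f2, chr4:22488367-22488616, minus strand: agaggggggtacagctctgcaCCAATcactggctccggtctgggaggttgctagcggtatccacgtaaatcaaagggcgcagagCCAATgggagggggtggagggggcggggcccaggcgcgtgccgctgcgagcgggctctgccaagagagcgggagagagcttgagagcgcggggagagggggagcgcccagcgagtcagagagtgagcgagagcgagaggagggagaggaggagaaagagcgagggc
Pou3f3, chr1:42695518-42695767, plus strand: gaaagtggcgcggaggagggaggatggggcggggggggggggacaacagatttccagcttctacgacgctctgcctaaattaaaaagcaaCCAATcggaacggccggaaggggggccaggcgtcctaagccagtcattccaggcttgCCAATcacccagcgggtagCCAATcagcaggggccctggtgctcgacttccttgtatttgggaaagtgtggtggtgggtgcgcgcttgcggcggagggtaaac
Pou3f4, chrX:110814129-110814279, plus strand: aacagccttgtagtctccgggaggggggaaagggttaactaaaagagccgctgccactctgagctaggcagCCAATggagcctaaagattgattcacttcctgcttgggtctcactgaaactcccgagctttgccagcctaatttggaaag
Over the full 250 bases before the start site, CCAAT was found on either strand 2 times for Pou3f2, 3 times for Pou3f3 and 3 times for Pou3f4. It was found 1 time for Meis1 and 1 time for Meis2, and 0 times for Meis3 and Pbx2. The start sites are those of RefSeq, and some windows reach into the deposited gene spans. The windows of Meis2, Meis3 and Pbx2 lay wholly inside them (250 of 250 bases each), as did 99 bases for Pou3f4 and 16 for Meis1. The Pou3f4 matches that begin at bases 175 and 216 lay in that part. Of 32851 windows of this length in the table, 33.8% held at least 1 CCAAT, 10.1% at least 2 and 2.79% at least 3. This motif was chosen after the sequences had been seen. Of the motifs chosen for their binding proteins and searched on both strands, GACCACCCA (GLI), ATGCAAAT (octamer), TGACAG (MEIS) and TGATTGAC (PBX) were in 0 of the 7 windows, and ACAAAG (SOX) was in that of Meis3 alone. The shares of all windows that held them were 0.225%, 1.60%, 15.9%, 0.691% and 16.5% in that order, and no 2 matches overlapped in the windows of these genes. The window of Pou3f2 had 66.8% G and C and that of Pou3f3 60.8%, against a median of 52.4% over all windows.

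Total counts per sample ran from 27514357 to 34878838. Sufu, the deleted gene, fell from 112 ± 9.13 to 40.6 ± 4.64 CPM (counts scaled to 1000000 per library; SD, n = 4 each), and all 4 Sufu-cKO samples lay below all 4 controls. The 8 dorsal telencephalon markers (Emx1, Lhx2 and Tbr1 among them) were present in every sample, and of them edgeR called 2 higher and 4 lower in Sufu-cKO. Of 39 Hox genes, which mark hindbrain and spinal cord and encode PBX partners there, 23 had no count in any sample and 37 had at most 3 counts in each. The call rule, edgeR's quasi-likelihood test with Benjamini-Hochberg adjusted p under 0.05, took 1689 of 15382 tested genes, which is 11.0%, with 5.34% called higher and 5.64% lower in Sufu-cKO.

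All 9 genes were tested, 1 of them (Pou3f2) rose and 8 did not pass. Against the background of 11.0%, 1 of 9 is near the genome-wide rate. The median log2 fold change, Sufu-cKO over control, was 0.34 over these 9 genes and 0.01 over all tested genes. An unadjusted edgeR p under 0.05 was reached by 3 of the 9, Pou3f2 and Pou3f4 (higher) and Pbx2 (lower). The share of all tested genes at that p is not given here, so this count is not read as a result about the 9. The genotypes did not overlap in CPM for 2 of the 9, Pou3f2 (higher) and Pbx2 (lower), against 16.2% of all tested genes in either direction and 8.33% in the direction of Pou3f2.

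**Figure D1:**
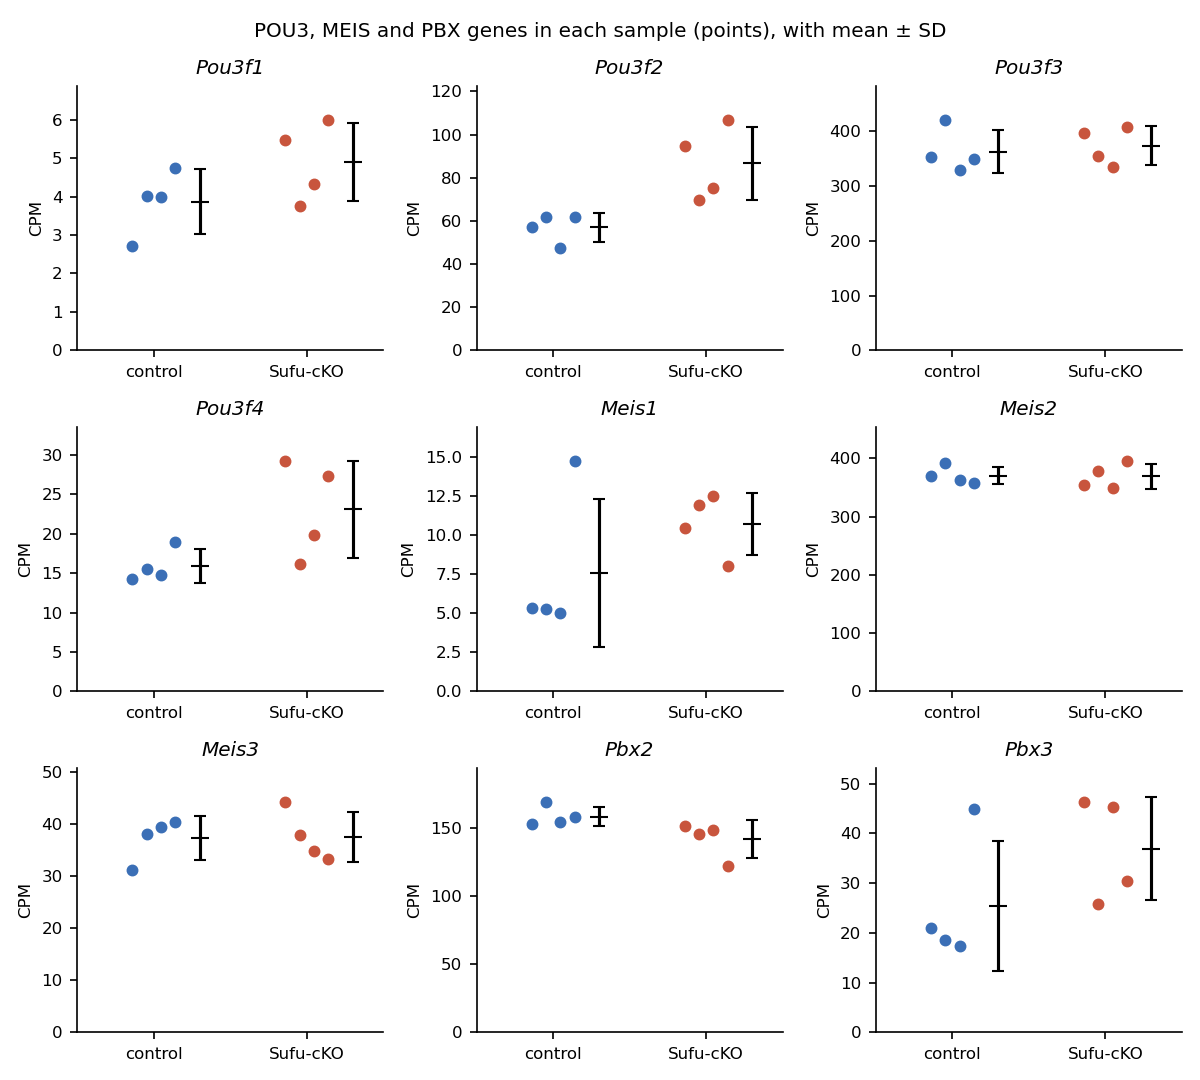
CPM of the 9 genes in each of 4 control (blue) and 4 Sufu-cKO (red) samples, with mean ± SD beside the points and a linear axis from 0 in each panel. Pou3f2 is the gene whose Sufu-cKO points, 69.7 to 106 CPM, all lie above the controls, while single control points stand high for Meis1 (14.7 CPM) and Pbx3 (44.8 CPM).

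Levels of different genes were compared per length, as RPKM, here CPM divided by kilobases of exon. The length merges all annotated exons, 12043 bases for Meis2 and 3640 for Pbx2, and which transcripts were made was not measured. In control CPM Meis2 (370) stood above Pbx2 (159), so the order of these genes rests on the length used. In control tissue Pou3f3 stood highest at 49.0 ± 5.27 RPKM (SD, n = 4), followed by Pbx2 at 43.6 ± 1.97 and Meis2 at 30.7 ± 1.24. Meis3 (11.7 ± 1.32) and Pou3f2 (10.2 ± 1.20) formed a middle pair, then Pou3f4 (5.43 ± 0.733) and Pbx3 (4.16 ± 2.13). Pou3f1 (1.0 ± 0.219) and Meis1 (0.721 ± 0.451) were lowest. The control ranges of neighbours in this order overlapped for Pou3f3 and Pbx2, for Meis3 and Pou3f2, for Pou3f4 and Pbx3, and for Pou3f1 and Meis1, so the order inside those pairs is not resolved. In Sufu-cKO samples the order was the same except that Pou3f2, at 15.5 ± 3.05 RPKM, came before Meis3 at 11.8 ± 1.51, with ranges that still overlapped. Pou3f3 was the most abundant POU3 gene in every sample and Meis2 the most abundant MEIS gene.

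**Figure D2:**
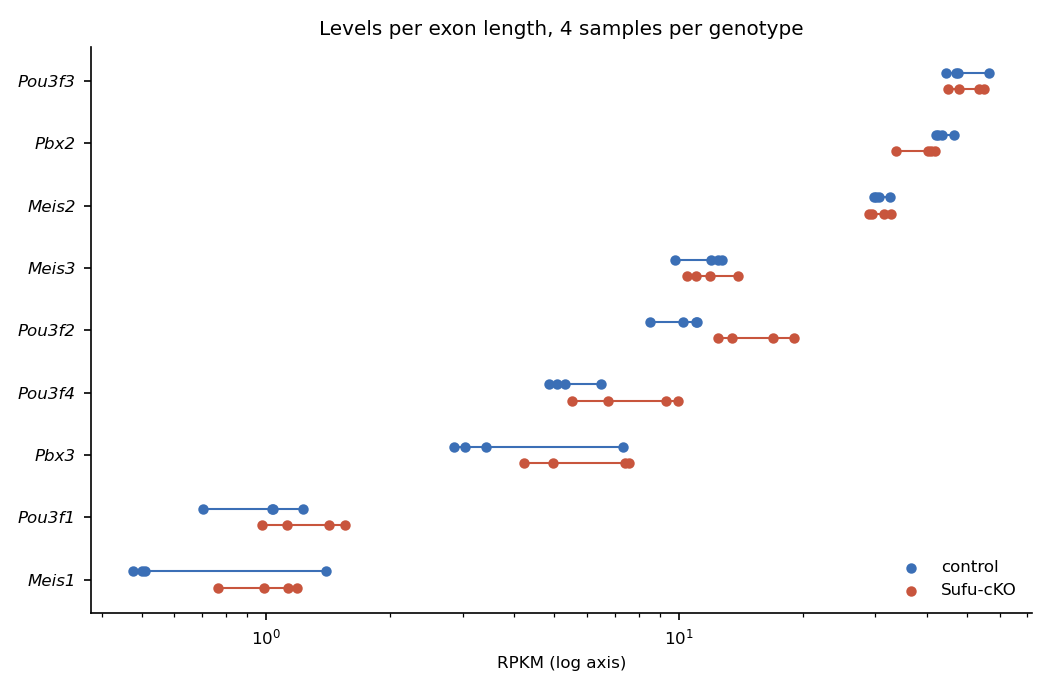
RPKM of the 9 genes on a log axis, 1 point per sample and a line from the lowest to the highest of 4 samples, controls in blue and Sufu-cKO in red. Pou3f3, Pbx2 and Meis2 sit near the top in both genotypes, and Pou3f1 and Meis1 near 1 RPKM.

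Pou3f2 (ENSMUSG00000095139, chromosome 4, 22482780 to 22488366 on GRCm38, a gene of 1 exon) was higher in Sufu-cKO. The controls had 57.4 (Cont_294), 61.6 (Cont_345), 47.5 (Cont_365) and 61.9 CPM (Cont_370). The Sufu-cKO samples had 94.8 (Mut_295), 69.7 (Mut_317), 75.4 (Mut_337) and 106 CPM (Mut_340). All 4 Sufu-cKO samples were above all 4 controls, with Mut_295 and Mut_340 highest and Mut_317 close to the controls. The rise was 1.52-fold, or 0.60 on the log2 scale (SE 0.14, 95% interval 0.29 to 0.91; edgeR, adjusted p = 0.0213, n = 4 each). The call was lost without Cont_294 (edgeR adjusted p = 0.0593), Cont_365 (0.0554) or Mut_295 (0.0575), and the log2 fold change stayed between 0.48 and 0.69 in the 8 fits with 1 sample left out.

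Pou3f4 (ENSMUSG00000056854, chromosome X, 110814280 to 110817207) had 14.2, 15.5, 14.8 and 19.0 CPM in Cont_294, Cont_345, Cont_365 and Cont_370. It had 29.2, 16.2, 19.8 and 27.3 CPM in Mut_295, Mut_317, Mut_337 and Mut_340. As for Pou3f2, Mut_295 and Mut_340 were highest, and Mut_317 fell inside the control range. The log2 fold change of 0.54 (SE 0.18, 95% interval 0.14 to 0.94) did not pass over all genes (edgeR, adjusted p = 0.0932). It passed without Mut_317 (log2 fold change 0.68, edgeR adjusted p = 0.0151) and by DESeq2 (adjusted p = 0.0195), and did not pass when any other sample was left out (edgeR adjusted p from 0.0676 to 0.231).

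Pou3f3 (ENSMUSG00000045515, chromosome 1, 42695768 to 42703176), the most abundant POU3 gene, had 353, 419, 330 and 349 CPM in the 4 controls in the same order. The Sufu-cKO samples had 397, 355, 334 and 408 CPM, all inside the control range. Its fitted difference of 0.04 on the log2 scale (SE 0.08) did not pass (edgeR, adjusted p = 0.835), with a 95% interval of -0.14 to 0.23. Pou3f1 (ENSMUSG00000090125, chromosome 4, 124656807 to 124660655) was scarce, with 79 to 185 counts per sample. It had 2.71 to 4.74 CPM in the controls and 3.77 to 5.98 CPM in Sufu-cKO, where Mut_295 and Mut_340 again were highest (log2 fold change 0.34, 95% interval -0.10 to 0.77; edgeR, adjusted p = 0.368).

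The balance among the POU3 genes was followed by ratios inside each library, which do not depend on library scaling. Pou3f2 made up 15.6% ± 1.12 of summed POU3 RPKM in control and 20.5% ± 1.54 in Sufu-cKO (SD, n = 4 each), and Pou3f3 74.6% ± 2.19 and 67.4% ± 3.10. The summed level was 65.6 ± 6.22 RPKM in control and 75.1 ± 9.79 in Sufu-cKO. The log2 ratio of Pou3f2 to Pou3f3 counts went from -2.67 ± 0.14 to -2.12 ± 0.17, a difference of 0.54, and the highest control value (-2.49) lay below the lowest Sufu-cKO value (-2.35). The exact 2-sided permutation p over samples was 0.0286, the smallest that 4 against 4 samples can give, and 0.286 after Benjamini-Hochberg adjustment over the 10 within-family pairs compared. At least 6 of the 10 pairs would have had to reach that smallest p for any adjusted p to fall under 0.05. The ratio of Pou3f2 to Pou3f4 differed by 0.08 between the genotypes (exact permutation p = 0.629). Pou3f3 to Pou3f4 stood at -0.47 (exact permutation p = 0.0571), and the other pairs lay between 0.200 and 0.286 in p for the POU3 genes.

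Of the 3 MEIS genes 0 passed the edgeR test, and 0 had an unadjusted p under 0.05 or were called by DESeq2 or limma-voom, with Meis2 and Meis3 close to 0 change and Meis1 resting on 1 control sample. Meis2 (ENSMUSG00000027210, chromosome 2, 115863064 to 116065839) had 369, 392, 362 and 358 CPM in the controls and 354, 379, 348 and 395 CPM in Sufu-cKO. The groups overlapped, with 1 Sufu-cKO sample above the highest control and 2 below the lowest, and the spread between samples was the smallest of the 9 genes in both genotypes, with a coefficient of variation of 4.04% in control and 5.85% in Sufu-cKO. The fitted difference was -0.0047 on the log2 scale, with SE 0.06 and a 95% interval of -0.13 to 0.12 (edgeR, adjusted p = 0.978). Meis3 (ENSMUSG00000041420, chromosome 7, 16175090 to 16186504) had 31.1 to 40.3 CPM in control and 33.2 to 44.1 CPM in the mutant samples, and its fitted difference was 0.0086 (95% interval -0.22 to 0.23; edgeR, adjusted p = 0.978). Neither of these 2 fitted values is distinguishable from 0, and both changed sign under some alternatives.

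Meis1 (ENSMUSG00000020160, chromosome 11, 18879817 to 19018985) had 5.35, 5.29 and 5.02 CPM in Cont_294, Cont_345 and Cont_365 and 14.7 CPM in Cont_370. The Sufu-cKO samples had 10.4 (Mut_295), 11.9 (Mut_317), 12.51 (Mut_337) and 8.04 CPM (Mut_340). Every Sufu-cKO sample thus lay above 3 controls and below Cont_370. With all 8 samples the fit gave 0.49 on the log2 scale (SE 0.37, 95% interval -0.35 to 1.33), which did not pass (edgeR, adjusted p = 0.508). Without Cont_370 it was 1.03 and called (edgeR, adjusted p = 0.00272), and leaving out any of the other 7 samples gave no call. The ratio of Meis1 to Meis2 differed by 0.65 on the log2 scale (exact permutation p = 0.143) and that of Meis2 to Meis3 by -0.01 (exact permutation p = 0.886).

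Of the 2 PBX genes edgeR, DESeq2 and limma-voom called 0, and 1 (Pbx2) had an unadjusted edgeR p under 0.05. In Pbx3 the controls divided as in Meis1. Pbx3 (ENSMUSG00000038718, chromosome 2, 34171457 to 34373142) had 20.9, 18.6 and 17.4 CPM in Cont_294, Cont_345 and Cont_365 and 44.8 CPM in Cont_370. It had 46.2 (Mut_295), 25.8 (Mut_317), 45.3 (Mut_337) and 30.4 CPM (Mut_340) in Sufu-cKO. All Sufu-cKO samples were above 3 of the controls, and 2 of them were above Cont_370 as well. The fit to all samples gave 0.53 on the log2 scale (SE 0.37, 95% interval -0.33 to 1.40; edgeR, adjusted p = 0.473), and without Cont_370 it was 0.95 and called (edgeR, adjusted p = 0.0247).

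Pbx2 (ENSMUSG00000034673, chromosome 17, 34591266 to 34597400), the more broadly expressed PBX gene, had 153, 169, 155 and 158 CPM in the controls and 152, 146, 149 and 122 CPM in Sufu-cKO. All Sufu-cKO samples lay below all controls, 3 of them by little and Mut_340 by more. The log2 fold change of -0.16 (SE 0.07, unadjusted p = 0.0464 by edgeR) did not pass (edgeR, adjusted p = 0.212), and without Mut_340 it was -0.10. The log2 ratio of Pbx2 to Pbx3 was 2.76 ± 0.64 in control and 1.99 ± 0.37 in Sufu-cKO (exact permutation p = 0.0857).

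**Figure D3:**
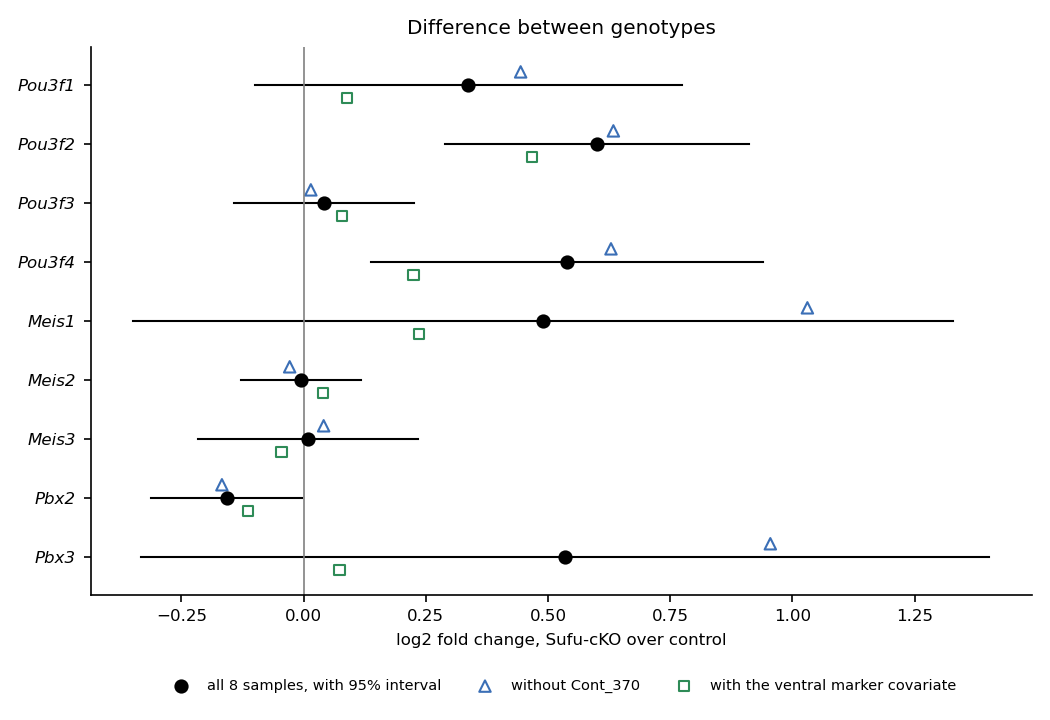
Log2 fold change of the 9 genes, Sufu-cKO over control. Black points are the fit to all 8 samples with its 95% interval, and blue triangles the fit without Cont_370. Green squares are the fit with the mean log2 CPM of the 12 tested ventral and GABAergic markers as a covariate. Meis1 and Pbx3 move up without Cont_370, to 1.03 and 0.95, and Pbx3 lies at 0.07 with the covariate.

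Markers of ventral telencephalon and GABAergic neurons, in whose territory Meis1, Pbx3 and Pou3f4 are known to be made, differed widely among the samples of each genotype. The summed level of the 15 listed markers was 41.0, 23.7, 56.5 and 131 CPM in Cont_294, Cont_345, Cont_365 and Cont_370. It was 222, 46.4, 119 and 203 CPM in Mut_295, Mut_317, Mut_337 and Mut_340. Cont_370 was thus the highest control and Mut_317 the lowest Sufu-cKO sample, with a range of 23.7 to 131 CPM in control and 46.4 to 222 CPM in Sufu-cKO. Dlx1, a transcription factor of GABAergic progenitors, had 38.9 CPM in Cont_370 against 1.71 to 12.9 CPM in the other controls. Not every listed gene took this order: Lhx6, a gene of ventrally born interneurons, had 8.62 CPM in Cont_365 and 3.36 CPM in Cont_370, against 1.79 to 2.53 CPM in Sufu-cKO. Of the list, 12 genes were tested and edgeR called 0 of them, with 2 at an unadjusted p under 0.05 in opposite directions (Gsx2 at 3.15 and Lhx6 at -1.08 on the log2 scale), while DESeq2 called 2 and limma-voom 1 (median log2 fold change 1.29 by edgeR), and Gsx1 and Lhx8 stayed under 10 counts in every sample. In bulk RNA, more cells of a type and more RNA per cell cannot be told apart.

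Pou3f4 was highest in Mut_295 and Mut_340, the samples with the highest ventral marker sums. Pbx3 was highest in Mut_295, Mut_337 and Cont_370, while Mut_340, with 203 CPM of markers, had 30.4 CPM of Pbx3. Pou3f2 was also highest in Mut_295 and Mut_340, but Cont_370, with 131 CPM of ventral markers, had 61.9 CPM of Pou3f2, level with Cont_345 at 61.6 CPM and 23.7 CPM of markers. Meis1 did not take the order of the markers inside the Sufu-cKO group. Mut_317, with the fewest ventral markers there, had 11.9 CPM of Meis1, while Mut_340, with 203 CPM of markers, had the least at 8.04 CPM. A covariate was made from the mean log2 CPM of the 12 tested ventral and GABAergic markers, not from the sums. With it, the log2 fold change was 0.47 for Pou3f2 and 0.22 for Pou3f4 (edgeR, adjusted p = 0.198 and 0.612). For Meis1 it was 0.24 and for Pbx3 0.07 (edgeR, adjusted p = 0.839 and 0.948). That covariate also took the number of called genes from 1689 to 683. It ran from -0.38 to 2.81 in control and from 1.24 to 3.46 in Sufu-cKO, and so shifted partly with genotype. These fits cannot separate the covariate from genotype, and its part in each result was not tested.

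**Figure D4:**
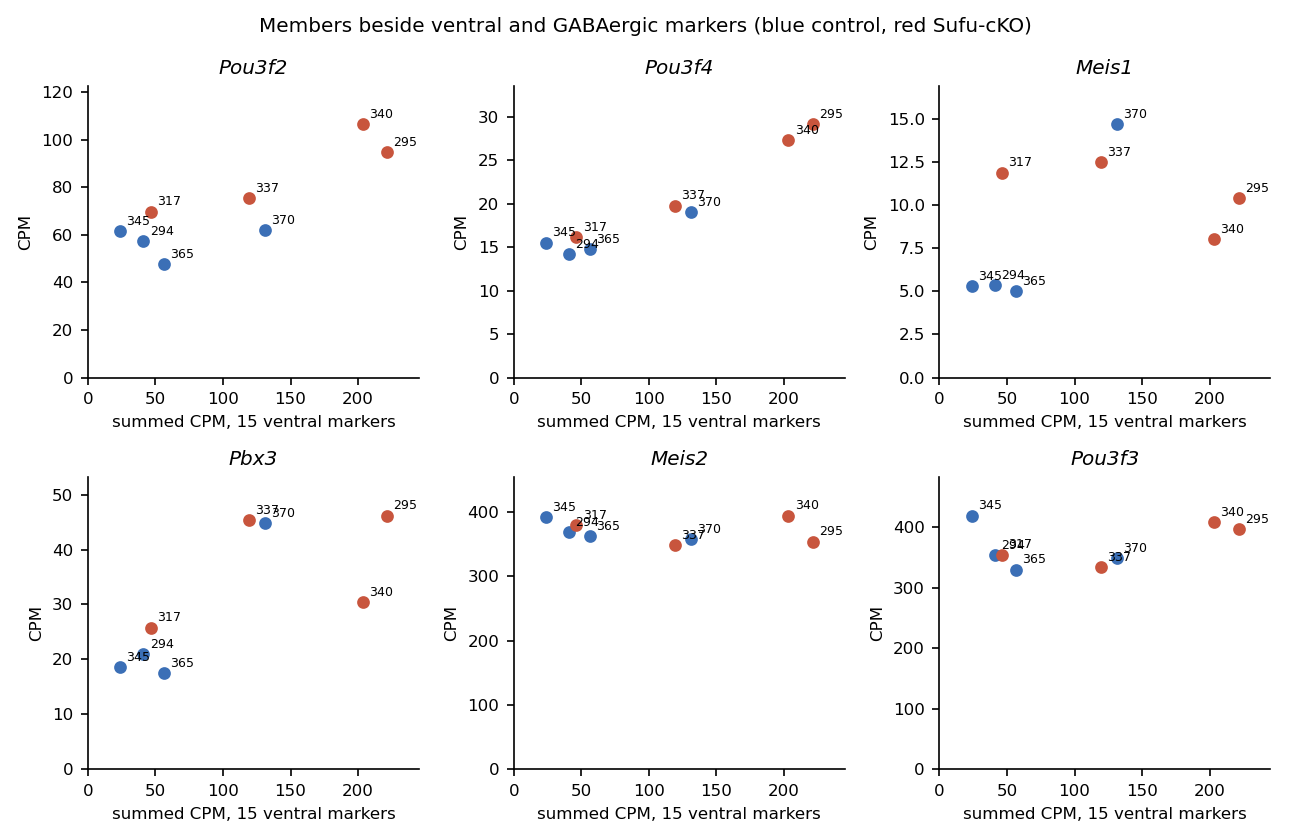
CPM of 6 of the genes against the summed CPM of 15 ventral and GABAergic markers, 1 point per sample labelled with its number, controls in blue and Sufu-cKO in red, linear axes from 0. Pou3f4 is highest where the markers are highest, Meis2 and Pou3f3 stay level, and Cont_370 stands with the Sufu-cKO samples for Meis1 and Pbx3.

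Marker lists of other cell types were summed in the same way, and over all tested genes edgeR called 11.0%. Summed choroid plexus markers were 477 to 759 CPM in control and 69.9 to 257 CPM in Sufu-cKO, lowest in Mut_340. Of 7 tested, 5 fell by edgeR, and DESeq2 and limma-voom each called 7. Progenitor markers summed to 2667 to 2850 CPM in control and 3554 to 3665 CPM in Sufu-cKO, with 4 of 8 rising. The other 4 did not pass and had log2 fold changes below 0, down to -0.34, so the sum does not stand for every listed gene. Young neuron markers summed to 2337 to 2731 and 2889 to 3133 CPM, with 5 of 10 rising. Meningeal and mesenchymal markers were 720 to 751 CPM in 3 Sufu-cKO samples and 1580 CPM in Mut_337, against 889 to 951 CPM in control, and 0 of 9 passed by edgeR, DESeq2 or limma-voom, with 0 at an unadjusted edgeR p under 0.05. Of endothelial and microglial markers 3 of 8 and 3 of 7 fell by edgeR, while DESeq2 called 3 and 4 and limma-voom 1 and 3. Endothelial markers summed to 291 to 340 CPM in control and 249 to 297 CPM in Sufu-cKO, and microglial markers to 40.0 to 53.6 and 30.6 to 38.7 CPM. Of 8 erythroid markers edgeR called 0 (3 at an unadjusted p under 0.05) and DESeq2 1. Their sums did not overlap, at 3513 to 4640 CPM in control and 3045 to 3489 CPM in Sufu-cKO, with a median log2 fold change of -0.36. Of 4 tested markers of diencephalon 1 rose and 1 fell. Their part in the values of the POU3, MEIS and PBX genes was not tested.

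The loci of the 9 genes hold further transcripts. GENCODE M21, of the same build, lists 22 genes that overlap one of the 9 or lie within 10 kb (10000 bases) of it, of which 20 are in the counts table, 10 were tested and 0 were called by edgeR, DESeq2 or limma-voom, with 1 at an unadjusted edgeR p under 0.05. The share that edgeR called over all tested genes was 11.0%. Pantr1, a noncoding RNA that begins on the opposite strand close to Pou3f3, had 93.5, 104, 92.4 and 93.5 CPM in the controls and 109, 99.3, 94.4 and 158 CPM in Sufu-cKO. Mut_340 and, by less, Mut_295 were above the highest control (log2 fold change 0.26; edgeR, adjusted p = 0.356). Pantr2, on the other side of Pou3f3, had 22.1 ± 3.49 and 23.9 ± 4.45 CPM (edgeR, adjusted p = 0.733). Beside Meis2, 2700033N17Rik stood at 0.30 and G630016G05Rik at 0.34 on the log2 scale (edgeR, adjusted p = 0.286 and 0.348). The other tested neighbours, AC122898.1 at Pou3f3 and Notch4, Gpsm3, Ager, Rnf5 and Agpat1 at Pbx2, had edgeR adjusted p between 0.185 and 0.939. Exons of 4 neighbours overlap exons of Pou3f1 (Gm2164), Meis1 (Gm37818 and Gm16140) or Pbx2 (Gpsm3), so reads there depend on how the authors counted. Gpsm3 had at most 57 counts in a sample against at least 3781 for Pbx2, and the neighbours that were not tested had at most 8.

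Outside these 9, edgeR called 2 of the tested POU and TALE genes, in opposite directions, and it called 11.0% of all tested genes. Pou2f1 encodes OCT1, a broadly expressed octamer-binding factor. It had 73.1, 68.5, 72.5 and 85.4 CPM in the controls and 106, 128, 125 and 129 CPM in Sufu-cKO, without overlap (log2 fold change 0.70, SE 0.08; edgeR, adjusted p = 0.000166). It was the 1 of 4 tested genes of the other POU classes that rose, and 3 did not pass. Tgif1, a TALE repressor whose human counterpart is a holoprosencephaly gene and which restrains TGF-beta and retinoid signalling, was almost constant within each genotype. It had 67.4, 68.7, 62.0 and 65.6 CPM in the controls and 40.0, 38.9, 39.4 and 39.6 CPM in Sufu-cKO (log2 fold change -0.74, SE 0.06; edgeR, adjusted p = 5.81e-06). It was the 1 of 9 tested other TALE genes that fell, and 8 did not pass. Beside the share over all genes, these counts are not read as a result about either class.

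The SOX partners of POU3 factors split by gene. Sox1 (log2 fold change 1.12) and Sox2 (0.58) rose, and Sox3 (-0.74) and Sox12 (-0.31) fell. Sox11, the highest in CPM (not scaled by length) at 1052 ± 55.5 CPM in control (SD, n = 4), was at 0.02 and did not pass, like Sox4 (edgeR adjusted p = 0.891 and 0.644). Of 9 genes reported elsewhere as targets of POU3 or of MEIS and PBX factors, 5 rose, 1 fell and 3 did not pass. Over all tested genes edgeR called 11.0%. The list was chosen with earlier results of these data known, and Nes, Sox2, Pax6 and Dcx are also on the progenitor, dorsal telencephalon or young neuron marker lists. Nes, an intermediate filament gene with a POU and SOX enhancer, had 849 ± 70.2 and 1140 ± 58.9 CPM (SD, n = 4 each; edgeR, adjusted p = 0.00161), and Pax6, Sox2 and Dcx rose too. The NOTCH ligand gene Dll1, named after its values were seen, had 138 ± 6.15 and 103 ± 12.3 CPM (SD, n = 4 each) and fell (edgeR, adjusted p = 0.00509). Whether any of these genes is bound by the factors in this tissue was not measured.

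The patterns most like that of Pou3f2 over the 8 samples, among the 13628 tested genes that averaged 1 CPM or more, were those of Hebp2 and Mro. Their log2 CPM profiles, each centred on its own mean, differed from that of Pou3f2 by a root mean square of 0.11 for each. Both genes were low, at 3.27 and 4.09 CPM in control and 4.47 and 7.07 CPM in Sufu-cKO. In the authors' deposited table, which has its own test, Pou3f2 was also the 1 gene of the 9 with a false discovery rate under 0.05 (0.0222, fold change 1.51), against 5.78% of the 25299 genes listed there with a rate.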

How the data were processed

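The labels' protocols name a Qiagen RNA kit and an Illumina stranded mRNA library kit. Alignment used STAR 2.4.2a and GRCm38, per the submitters' processing notes. How reads were counted, with which strand setting and annotation, is not given in the sources used here. Gene counts, not normalised, were deposited by the authors and are what was tested. They also deposited a normalised signal per gene, equal to counts over 1 factor per sample, that was not used in any test. The authors' deposited fold change (a ratio), p-value and false discovery rate were read for the 9 genes. A spreadsheet formula in place of the Pou3f3 ID was read back as that ID. Every column of values matched a sample, so 0 were left out.

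In R 4.3.3 with edgeR 4.0.16, filterByExpr (minimum count 10, minimum total 15) left 15382 genes, which were scaled by TMM and fitted as genotype alone by the robust quasi-likelihood test, 2-sided. SE was taken from the log2 fold change and F, and intervals from its t quantile. CPM uses TMM-scaled library sizes, and RPKM divides CPM by the merged exon length in GENCODE M21. Ratios inside families used counts plus 0.5 and the exact permutation test over all 70 splits. Nothing in the labels ties the samples of a genotype to separate embryos, and the p-values therefore reflect sample-to-sample spread that could be technical. Within each genotype every pair of samples differed by more than the sampling noise of counts (chi-square per degree of freedom 8.90 to 30.6). Each sample was counted once, but these values cannot show that the samples were separate embryos. The genes and the 18 gene and marker lists were chosen with earlier results of these data known. Text names the 9 genes, their neighbours, up to 4 called genes of each list with its member of highest CPM, and the 2 genes most like each called one. Some genes under this rule are left unreported but stay in the counts. Alternatives were 3 other scalings, 2 other filters, DESeq2 1.42.0, limma-voom (limma 3.58.1), edgeR without robust estimation, the ventral marker covariate, and each sample left out in turn.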

Additional observations from a re-analysis of the deposited data

Results flagged for a closer look

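In Cont_370, Meis1 stood at 14.7 CPM against 5.02 to 5.35 CPM in the other controls, and the gap to the nearest of them was 0.966 of the range of the 4 values. Pbx3 stood at 44.8 CPM in the same sample against 17.4 to 20.9 CPM, with a gap of 0.874 of the range. Both gaps exceed Dixon's 95% critical value for 4 samples. In all 18 sets of 4 samples were examined, 2 passed, and chance flags about 1 in 20. The same sample had the highest ventral and GABAergic marker level of the controls, 131 CPM.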

How the results depend on the processing

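Pou3f2 stayed above 0 in all 17 alternatives (log2 fold change 0.47 to 0.69), and so did Pou3f4, Meis1, Pbx3 and Pou3f1, while Pbx2 stayed below 0. The number of the 9 genes called was 1 by edgeR, 2 by DESeq2, 0 without a low-count filter (Pou3f2: edgeR adjusted p = 0.0704), 0 with the ventral marker covariate and 0 to 3 with 1 sample left out. With the covariate 683 genes were called, 369 higher and 314 lower. With 1 sample left out, 1079 to 1836 genes were called, 537 to 939 higher and 542 to 897 lower, fewest without Cont_345. Values near 0 changed sign. Meis3 was at -0.010 with upper-quartile scaling, -0.0087 with library size alone, -0.0020 with the stricter filter and -0.045 with the covariate, and Meis2 at 0.040 with the covariate. With 1 sample left out Meis3 ran from -0.081 to 0.057, Meis2 from -0.044 to 0.023, Pou3f3 from -0.01 to 0.12 and the difference in the Meis2 to Meis3 ratio from -0.10 to 0.086. The cause was not tested. No paired analysis was possible because the sample numbers of the genotypes are all different. With 79 to 185 counts per sample Pou3f1 is the member with the least depth.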

Other observations

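Retinoid genes were listed because retinoic acid is known to induce Meis genes in other tissues. Of 11 tested, 3 rose, 2 fell and 6 did not pass (median log2 fold change 0.0041, against 0.01 over all tested genes). Over all tested genes 11.0% were called. Rxra rose by 0.37 on the log2 scale, and Aldh1a2, a gene of retinoic acid synthesis, rose by 1.16 (edgeR, adjusted p = 0.00392 and 0.0369). Crabp2, which carries retinoic acid inside cells and was the listed gene with the highest CPM in control, fell from 79.9 ± 10.3 to 42.8 ± 9.22 CPM (edgeR, adjusted p = 0.00457). Stra6, a retinol receptor, fell by 0.63 (edgeR, adjusted p = 0.024). With 1 sample left out, 3 to 5 of them were called.

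Genes that later mark upper-layer neurons, the class for which Pou3f2 and Pou3f3 are known, moved in both directions at this early stage. Of 7 tested, 1 rose (Lmo4, 0.64 on the log2 scale), 2 fell (Mdga1 among them, at -0.35) and 4 did not pass, including Cux1, the highest in CPM, at 0.09 (edgeR, adjusted p = 0.299). Of 8 deep-layer and early neuron genes, Tbr1 rose (0.29), Fezf2 (-0.43) and Zfpm2 (-0.47) fell and 5 did not pass, Nfib being the highest in CPM, at -0.43 (edgeR, adjusted p = 0.108). Between 0 (with the ventral marker covariate) and 5 (DESeq2) of the deep-layer list were called over the alternatives. In the main edgeR fit 11.0% of all tested genes were called.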
